A study of Mus musculus with 2 samples.

Results

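Ccl3, Ccl4, Ccl5, Ccl6 and Ccl9 are 5 genes of the CC chemokine family that lie near each other on mouse chromosome 11. They were taken by symbol from the 31053 genes of 2 single-cell RNA libraries made from CD45+ lung cells, CD45 being the marker of blood-derived cells. The control library came from untreated mice labelled Ccr2-/- and CD45.1+, and the exposed library from mice labelled Ccr2-/- and CD45.3+ that inhaled diesel exhaust particles (DEP) at 500 µg/m³ in sessions of 1 hour, on 5 days a week for 2 weeks. Each group was a single library, and whether it pooled animals is not given in the sources used here. All intervals below therefore cover counting error, not the spread between animals, and no p-value is given. The CD45 allele, the sort and the library differ together with the exposure, so their parts in a difference cannot be told apart.

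Ccr2, the gene labelled as knocked out in both libraries, was still counted. Among classical monocytes, whose 7 gate markers include it, a Ccr2 UMI (unique molecular identifier, the count of 1 captured transcript) was detected in 94.2% of 292 control cells and in 99.2% of 515 exposed ones. A 3′ tag can lie outside a deleted stretch, so this count does not check the genotype. The series' design text names wild-type mice as well, and both libraries are called here by their treatment.

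CC chemokines are small secreted proteins with 2 adjacent cysteines near their start, and they steer leukocytes through receptors on the cell surface. Ccl3 and Ccl4 (macrophage inflammatory proteins 1α and 1β) are made quickly by activated myeloid cells and cytotoxic lymphocytes. Ccl5 (RANTES) is a product of NK cells and memory T cells. Ccl6 and Ccl9 are rodent chemokines made by myeloid cells. The receptor Ccr1 binds Ccl3, Ccl5, Ccl6 and Ccl9.

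In mm10 coordinates (GENCODE vM21) all 5 are protein-coding genes of chromosome 11. Ccl5 (ENSMUSG00000035042) spans 83525778 to 83530518 on the minus strand. Ccl9 (ENSMUSG00000019122) spans 83572919 to 83578636 and Ccl6 (ENSMUSG00000018927) spans 83587882 to 83593087, both on the minus strand. Ccl3 (ENSMUSG00000000982) spans 83647844 to 83649355 on the minus strand, and Ccl4 (ENSMUSG00000018930) spans 83662584 to 83664683 on the plus strand. The annotated transcripts of Ccl3, Ccl4 and Ccl5 have 3 exons, and those of Ccl6 and Ccl9 have 4. Ccl6 overlaps the noncoding E230016K23Rik of the opposite strand, which was not analysed here, and the strand setting of the counting is not given in the sources used here.

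The adjacent cysteine codons that define the family are shown in capitals below, in 48 coding bases of each annotated transcript (exonic, written 5′ to 3′), so that the resemblance and the differences between the 5 genes can be read directly.
Ccl3: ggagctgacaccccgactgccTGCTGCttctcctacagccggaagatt
Ccl4: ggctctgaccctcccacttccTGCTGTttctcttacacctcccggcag
Ccl5: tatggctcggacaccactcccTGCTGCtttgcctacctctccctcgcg
Ccl6: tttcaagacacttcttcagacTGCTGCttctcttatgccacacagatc
Ccl9: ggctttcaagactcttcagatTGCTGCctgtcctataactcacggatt

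The first of the 2 cysteines is codon 34 in Ccl3 and Ccl4, codon 33 in Ccl5, codon 50 in Ccl6 and codon 57 in Ccl9. Ccl3 and Ccl4 were the most alike pair over the coding sequence, with 69.5% identical bases in the alignment, followed by Ccl6 and Ccl9 at 66.5%. Ccl3 and Ccl9 were the least alike at 50.9%. The longest exact run shared by any 2 of the 5 transcripts was 25 bases, between Ccl6 and Ccl9. No run of 60 bases of Ccl3, Ccl4, Ccl5 or Ccl6 occurred in a transcript of another annotated gene, and 1.05% of the 60-base runs of Ccl9 did.

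The tables held 10312 control and 10000 exposed barcodes, with 62047730 and 67030914 UMIs, and 23 barcode sequences occurred in both. After filters and doublet removal 8940 and 8690 cells remained, at medians of 3672.5 and 4151 UMIs. Cells were assigned to a class when at least 3 of its marker genes were seen and its share of markers exceeded that of every other class by at least 0.25. This gated 90.1% of control and 91.4% of exposed cells into 16 classes, of which 10 had at least 50 cells in each library. A further 357 and 300 ungated cells would have been gated at a margin of 0.15. Levels are the gene's share of all UMIs of the class, scaled to 10 to the power of 6 (CPM), with exact Poisson 95% intervals in brackets. The ungated cells held between 7.06% (Ccl5, exposed) and 30.1% (Ccl9, control) of a gene's UMIs.

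The leading producers differed between the genes, although Ccl3 and Ccl4 shared several. Over all kept cells the level of Ccl3 was 268 CPM in the control and 229 CPM in the exposed library, and that of Ccl4 was 443 and 324 CPM. Ccl5 stood at 1364 and 1278 CPM, Ccl6 at 1288 and 1354 CPM, and Ccl9 at 127 and 140.0 CPM. No single cell held more than 2.33% of a gene's UMIs over the kept cells of a library. B cells serve below as the class that should largely lack these genes, although activated B cells can make Ccl3 and Ccl4. Much of the class's Ccl3 and Ccl4 lay in few cells. The top B cell held 43.5% (control) and 23.3% (exposed) of its Ccl3 UMIs, and 24.6% and 26.1% of its Ccl4 UMIs. In B cells the control and exposed levels were 19.7 and 11.8 CPM for Ccl3, 61.5 and 40.5 CPM for Ccl4, 44.4 and 24.6 CPM for Ccl5, 24.9 and 18.2 CPM for Ccl6, and 5.76 and 2.61 CPM for Ccl9.

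**Figure D1:**
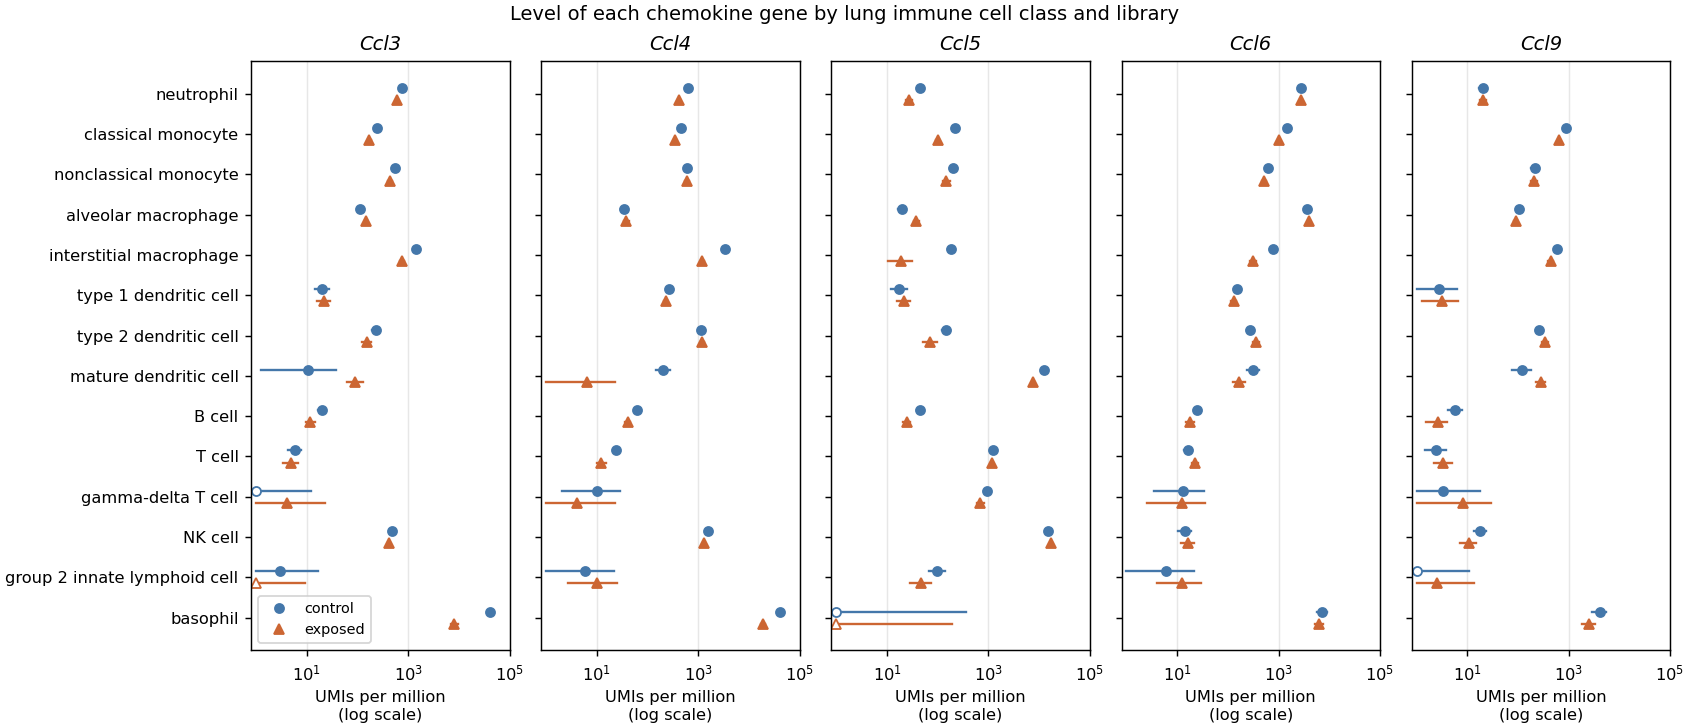
Level of each gene (horizontal, CPM, log scale) in 14 gated classes of the control (circles) and exposed (triangles) libraries, with exact Poisson 95% intervals; open symbols are classes at 0 UMIs, drawn at the left edge, where lower bounds under 1 CPM also end. Ccl5 is highest in NK cells, Ccl6 in basophils, alveolar macrophages and neutrophils, and Ccl9 in basophils and classical monocytes.

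Neutrophils contributed more Ccl3 UMIs than any other gated class, while basophils and interstitial macrophages had the highest levels. Neutrophils held 49.9% of the gated Ccl3 UMIs of the control and 50.1% of the exposed library. Their 2790 control cells stood at 756 CPM [736 to 775] and their 2661 exposed cells at 608 CPM [591 to 625]. Interstitial macrophages, the C1q-expressing macrophages of the lung tissue, were at 1394 CPM [1328 to 1462] in 111 control and 763 CPM [704 to 825] in 87 exposed cells. Nonclassical monocytes, which patrol vessel walls, were at 553 and 432 CPM, and NK cells at 474 and 423 CPM. The intervals of those neighbours did not overlap in the control library, and in the exposed library they did. However, 115 of the 464 control UMIs of nonclassical monocytes (24.8%) came from 1 cell, so the control order leans on that cell. Classical monocytes followed at 245 and 172 CPM and alveolar macrophages, the phagocytes of the airspace, at 112 and 147 CPM. Type 1 dendritic cells were at 20.3 and 21.5 CPM and T cells at 5.77 and 4.85 CPM, and group 2 innate lymphoid cells had 1 Ccl3 UMI in all.

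Within neutrophils Ccl3 was unevenly spread. Ccl3 was detected in 51.2% of control neutrophils and in 40.3% of exposed ones, at medians of 2684.5 and 2910 UMIs per cell, against 3.44% and 2.57% of B cells at 3314.5 and 3659 UMIs. With each cell thinned to 1000 UMIs the neutrophil shares were 34.3% [32.5 to 36.1] and 25.2%, and the B cell shares 0.97% and 0.78%. The 10% of neutrophils with the most Ccl3 held 53.6% (control) and 64.8% (exposed) of its UMIs. No neutrophil held more than 1.12% of them. In interstitial macrophages 280 of the 1687 control UMIs (16.6%) and 96 of the 618 exposed UMIs (15.5%) came from 1 cell.

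NK cells and neutrophils contributed the most Ccl4 UMIs, with 4890 and 4889 in the control library. NK cells held 26.3% and 28.3% of the gated Ccl4 UMIs, at 1573 CPM [1529 to 1618] in 680 control and 1273 CPM [1233 to 1314] in 622 exposed cells. Neutrophils held 26.3% and 25.8%, at 624 and 413 CPM. Interstitial macrophages stood above NK cells in the control library, at 3400.0 CPM [3297 to 3505]. In the exposed library they were at 1191 CPM [1117 to 1269], an interval that overlapped those of NK cells and type 2 dendritic cells. Type 2 dendritic cells, with 55 and 44 cells, were at 1147 and 1206 CPM. Plasmacytoid dendritic cells were few, at 1299 CPM [1127 to 1490] in 18 control cells and 204 CPM [82.1 to 421] in 4 exposed cells. The exposed value rested on 7 UMIs, all in 1 cell. Nonclassical monocytes were at 599 and 601 CPM, classical monocytes at 457 and 346 CPM, and type 1 dendritic cells at 265 and 226 CPM. Alveolar macrophages were at 33.6 and 38.0 CPM, against 61.5 and 40.5 CPM in B cells, with overlapping intervals in the exposed library. Group 2 innate lymphoid cells were at 5.94 and 9.95 CPM.

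A Ccl4 UMI was seen in 71.9% and 69.0% of NK cells, in 29.5% and 22.5% of neutrophils, and in 5.72% and 4.52% of B cells. The 10% of cells with the most Ccl4 held 78.7% and 87.3% of the neutrophil UMIs, but 55.1% and 55.8% of those of NK cells. In classical monocytes 1 control cell with 382 UMIs held 31.8% of the class's Ccl4.

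**Figure D2:**
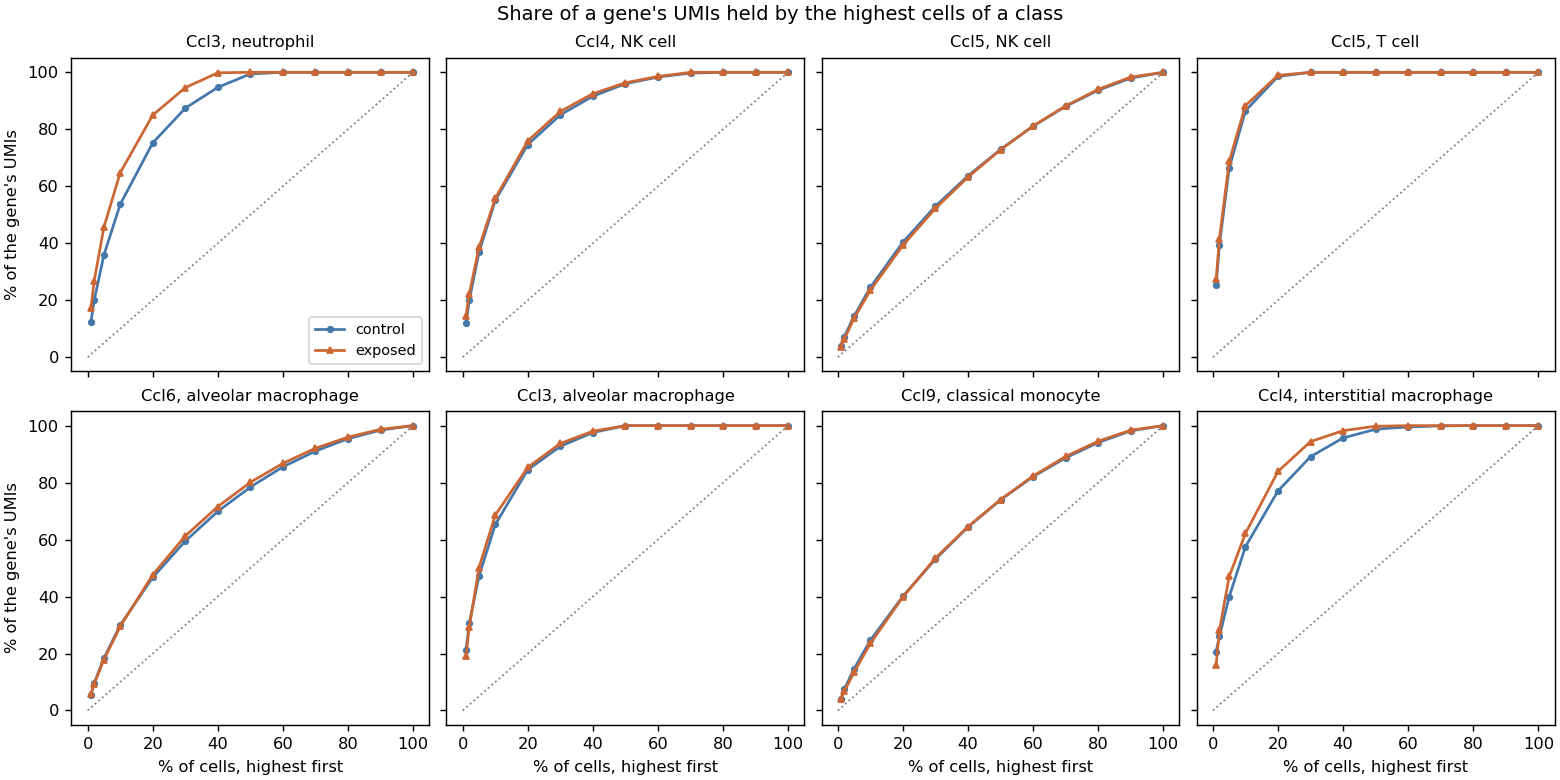
Cumulative percent of a gene's UMIs (vertical) held by the given percent of cells, highest first (horizontal), for 8 pairs of gene and class in the control (circles) and exposed (triangles) libraries; the dotted line is an equal share. Ccl5 in NK cells and Ccl9 in classical monocytes run nearest to it, and the top 10% of T cells hold 86.5% and 88.3% of their Ccl5.

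Ccl5 was above all an NK cell transcript. NK cells, cytotoxic innate lymphocytes, held 76.5% and 78.9% of the gated Ccl5 UMIs while making up 680 of 8052 and 622 of 7944 gated cells. Control NK cells were at 15183 CPM [15046 to 15320] and exposed NK cells at 17489 CPM [17339 to 17640], and 99.9% and 99.8% of them had a Ccl5 UMI. The share stayed at 99.0% and 98.4% with cells thinned to 1000 UMIs, against 3.38% and 3.24% of B cells. The 10% of NK cells with the most Ccl5 held 24.5% and 23.5% of it, so that the gene was spread evenly compared with Ccl4 in the same cells.

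T cells came next by amount, with 15.9% and 14.6% of the gated Ccl5 UMIs at 1207 CPM [1183 to 1231] and 1175 CPM [1152 to 1199], and 30.0% and 27.9% of their cells had a UMI. Mature dendritic cells, the migrating Ccr7-expressing form, were at 12767 CPM [12264 to 13286] and 7712 CPM [7410 to 8023]. These were only 17 and 24 cells, and 1 cell held 27.5% of the control and 19.1% of the exposed UMIs. Gamma-delta T cells were at 917 and 697 CPM, with 27.5% and 52.6% of the UMIs in 1 cell. In nonclassical monocytes, at 204 and 148 CPM, 1 cell held 54.4% of the control and 80.9% of the exposed UMIs. Group 2 innate lymphoid cells were at 98.0 and 47.3 CPM, neutrophils at 45.1 and 26.8 CPM and type 1 dendritic cells at 17.6 and 21.5 CPM, which is near or below B cells except for the first.

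T cell Ccl5 sat in a minority of the cells. In the cluster led by Xcl1, Ikzf2 and Cd7, with 150 control and 162 exposed T cells, Ccl5 was at 6795 CPM [6624 to 6968] and 6512 CPM [6358 to 6669], and 135 and 147 of these cells had a UMI. In the cluster led by Cd8b1, Cd8a and Dapl1 it was at 761 and 803 CPM, with 29.6% and 32.7% of cells. In the cluster led by Icos, Ctla4 and Pxdc1 it was at 572 CPM [530 to 616] and 283 CPM [250 to 320]. In the cluster led by Igfbp4, Lef1 and Trib2, it was at 87.5 and 15.2 CPM, and 1 cell held 68.1% of the control UMIs.

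**Figure D3:**
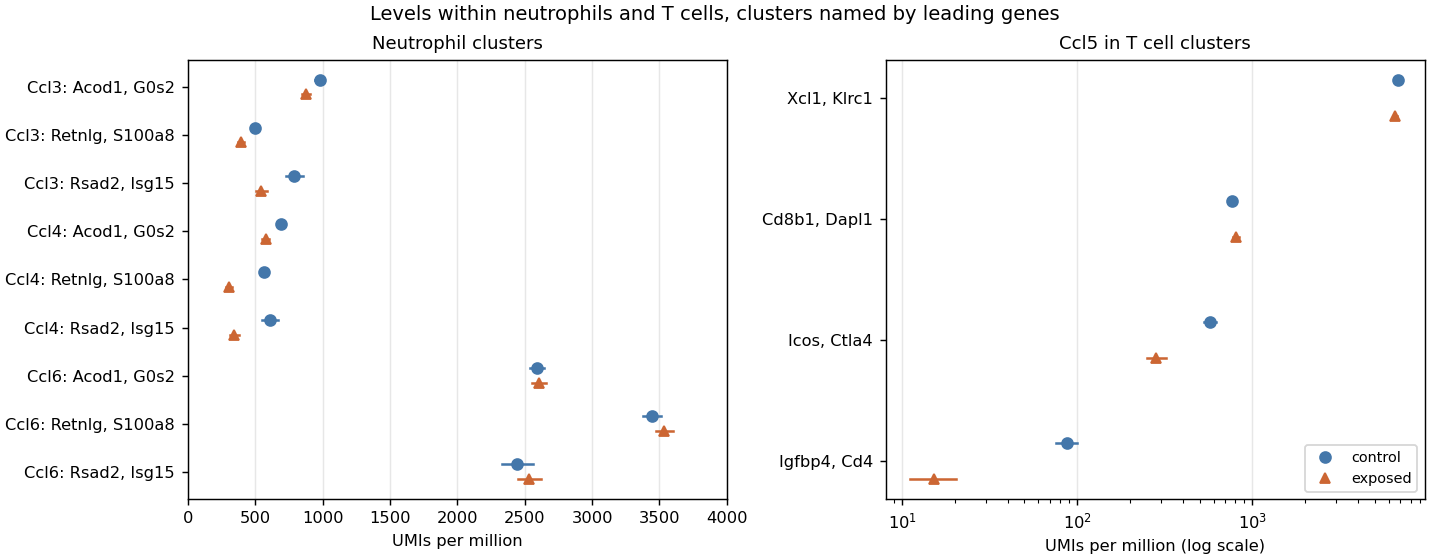
Left, Ccl3, Ccl4 and Ccl6 levels (CPM) in the 3 largest neutrophil clusters; right, Ccl5 levels (log scale) in 4 T cell clusters; clusters are named by leading genes, circles are the control and triangles the exposed library, and bars are exact Poisson 95% intervals. Ccl3 is highest in the Acod1, G0s2 cluster and Ccl6 in the Retnlg, S100a8 cluster, and T cell Ccl5 lies mainly in the Xcl1, Klrc1 cluster.

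Ccl6 was a transcript of nearly every alveolar macrophage and neutrophil. Alveolar macrophages held 48.9% and 50.1% of the gated Ccl6 UMIs, at 3689 CPM [3645 to 3733] in 402 control cells and 4019 CPM [3976 to 4063] in 511 exposed cells, and all of these cells had a UMI. At 1000 UMIs per cell the shares were 90.5% and 93.7%. Neutrophils held 39.7% and 36.8%, at 2835 CPM [2798 to 2873] and 2835 CPM [2800 to 2872], so that the 2 libraries differed by less than the counting error. A Ccl6 UMI was seen in 94.9% and 95.2% of neutrophils and in 6.84% and 6.75% of B cells. Classical monocytes were at 1454 CPM [1409 to 1501] and 1005 CPM [981 to 1029]. Below them came interstitial macrophages at 792 and 312 CPM and nonclassical monocytes at 630 and 510 CPM. In the exposed library these 2 classes stood in the opposite order. However, 363 of the 959 control UMIs of interstitial macrophages (37.9%) came from 1 cell. Type 2 dendritic cells were at 274 and 361 CPM and type 1 dendritic cells at 151 and 130.2 CPM. NK cells (14.2 and 16.1 CPM) and group 2 innate lymphoid cells (5.94 and 12.4 CPM) were below B cells in the control library. In the exposed library their intervals overlapped that of B cells. T cells, at 16.4 and 22.5 CPM, were below B cells in the control library.

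Classical monocytes contributed more Ccl9 UMIs than any other gated class. Classical monocytes, the circulating precursors of many tissue macrophages, held 51.9% of the gated Ccl9 UMIs of the control and 69.3% of the exposed library. The number of gated classical monocytes also differed, 292 against 515. They were at 907 CPM [871 to 944] and 646 CPM [627 to 666], and 99.0% and 98.4% of cells had a UMI. Interstitial macrophages were at 582 and 444 CPM, type 2 dendritic cells at 263 and 349 CPM, nonclassical monocytes at 213 and 206 CPM, and alveolar macrophages at 104 and 89.7 CPM. Neutrophils had 157 and 172 Ccl9 UMIs, and 3.58% and 3.76% of them had one. NK cells were at 18.0 and 10.7 CPM. Type 1 dendritic cells, T cells and group 2 innate lymphoid cells were below 4 CPM in both libraries.

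Basophils had the highest levels of Ccl3, Ccl4, Ccl6 and Ccl9 in both libraries, and they were few. The 3 control cells held 183, 143 and 83 UMIs of Ccl3 and the 5 exposed cells 55, 28, 26, 25 and 20. Ccl4 UMIs in the same cells were 294, 65 and 46 in the control and 60, 68, 84, 58 and 87 in the exposed library. Every exposed basophil was below every control basophil for Ccl3, while for Ccl4 the cells of the 2 libraries overlapped. The levels were 40900 and 8101 CPM for Ccl3 and 40500 and 18781 CPM for Ccl4. Ccl6 was at 7200 CPM [5634 to 9067] and 6418 CPM [5330 to 7663], and Ccl9 at 4100 CPM [2942 to 5562] and 2525 CPM [1862 to 3348]. No Ccl5 UMI was seen among their 10000 and 19009 UMIs, which allows up to 369 and 194 CPM. With 3 and 5 cells no ratio between libraries was formed.

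Neutrophil clusters, built without the 5 genes, differed in which chemokine was high. Ccl3 was at 978 CPM [947 to 1009] in the 1488 control cells and 875 CPM [844 to 907] in the 1188 exposed cells of the cluster led by Acod1, G0s2 and Csf1. The level was 496 and 392 CPM in the cluster led by Retnlg, S100a8 and S100a9, and at 789 and 544 CPM in the interferon-response cluster led by Rsad2, Slfn4 and Isg15. Ccl4 was at 689 and 579 CPM, 565 and 305 CPM, and 610.0 and 344 CPM in these 3 clusters. Ccl6 had another order, with 3442 and 3536 CPM in the Retnlg cluster against 2589 and 2607 CPM in the Acod1 cluster. The cluster led by Ngp, Camp and Ltf, granule genes of immature neutrophils, had 14 control and 24 exposed cells and the lowest Ccl3 (196 and 75.0 CPM) and Ccl4 (12.2 and 14.1 CPM) of the neutrophil clusters.

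Between the libraries, the 5 genes were compared in 10 classes, giving 50 pairs. A pair was called when the exact interval of its exposed-over-control ratio lay wholly beyond 1.5-fold and the 2 libraries held at least 50 UMIs together, with 0.5 UMIs added to each sum for the log2 ratio. Of the 44 pairs with enough UMIs, 1 was called higher and 7 were called lower in the exposed library, and 36 were not called. Over all genes with enough UMIs in the same 10 classes, 0.376% of gene and class pairs were called higher and 0.652% lower. Ccl9 was called in no class.

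The shares of all genes called higher and lower in each class set the scale for the members' counts. None of the 5 genes was called in neutrophils (0.762% of genes higher, 0.939% lower), nonclassical monocytes (0.452% and 0.286%) or NK cells (0.0781% and 0.0651%). None of the 4 counted was called in type 1 dendritic cells (0.446% and 0.137%), nor the 1 counted in group 2 innate lymphoid cells (0.586% and 0.146%). The shares were 0.259% and 1.14% in interstitial macrophages, 1.35% and 0.832% in classical monocytes, 0.0846% and 0.423% in alveolar macrophages, 0.0109% and 0.556% in B cells, and 0.0966% and 1.44% in T cells.

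Interstitial macrophages held 4 of the 7 lower pairs, where 1.14% of all 4635 genes counted in that class were called lower. Ccl4 fell from 3400.0 to 1191 CPM, a log2 ratio of -1.51 [-1.62 to -1.41]. The number of cells with at least 10 Ccl4 UMIs was 50 of 111 in the control and 25 of 87 in the exposed library. Ccl3 fell from 1394 to 763 CPM (log2 ratio -0.87 [-1.01 to -0.74]), with 43 of 111 and 18 of 87 cells at 10 UMIs or more. Ccl5 fell from 185 CPM [162 to 211] to 18.5 CPM [10.4 to 30.5] (log2 ratio -3.28 [-4.18 to -2.57]). The exposed value rested on 15 UMIs, and its interval overlapped that of B cells at 24.6 CPM. In the control library 12 of 111 cells held 87.5% of the 224 Ccl5 UMIs. Ccl6 was at 792 and 312 CPM (log2 ratio -1.34 [-1.55 to -1.14]), but 363 of its 959 control UMIs (37.9%) came from 1 cell. Ccl9, at 582 and 444 CPM, was not called (log2 ratio -0.39 [-0.58 to -0.20]).

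The Ccl4 call was kept in all 14 alternative settings (-1.56 to -0.82) and the Ccl5 call in all 13 that gave a value (-3.43 to -1.79). Ccl3 stayed called in 12 of 14, the lowest size being -0.48 with classes taken from clusters. The Ccl6 call was not stable: the log2 ratio was -0.85 without the top cell of each library, -0.29 without the top 1% of cells and 0.041 with classes from clusters. The Ccl4 level was lower in the exposed library in both kinds of interstitial macrophage. Cells with Folr2, Lyve1 or Cd163, genes of vessel-associated macrophages, were at 3927 and 1217 CPM in 76 and 58 cells, and cells without them at 2110 and 1135 CPM in 35 and 29 cells.

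Marker lists of other cells in the interstitial macrophages also differed between the libraries. The summed T cell list was 40.5 CPM in the control and 12.3 CPM in the exposed cells (9 and 7 of its 10 genes seen), and the NK cell list 16.5 and 9.9 CPM (6 and 3 of 8 genes, Klra8 at 0 in both). The neutrophil list was 462 and 765 CPM. Without cells holding 2 or more NK or T cell markers the Ccl5 ratio was -3.43 and the Ccl4 ratio -1.55, as large as with them. The neutrophil list moved opposite to Ccl3 and Ccl4, and its part in the result was not tested.

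**Figure D4:**
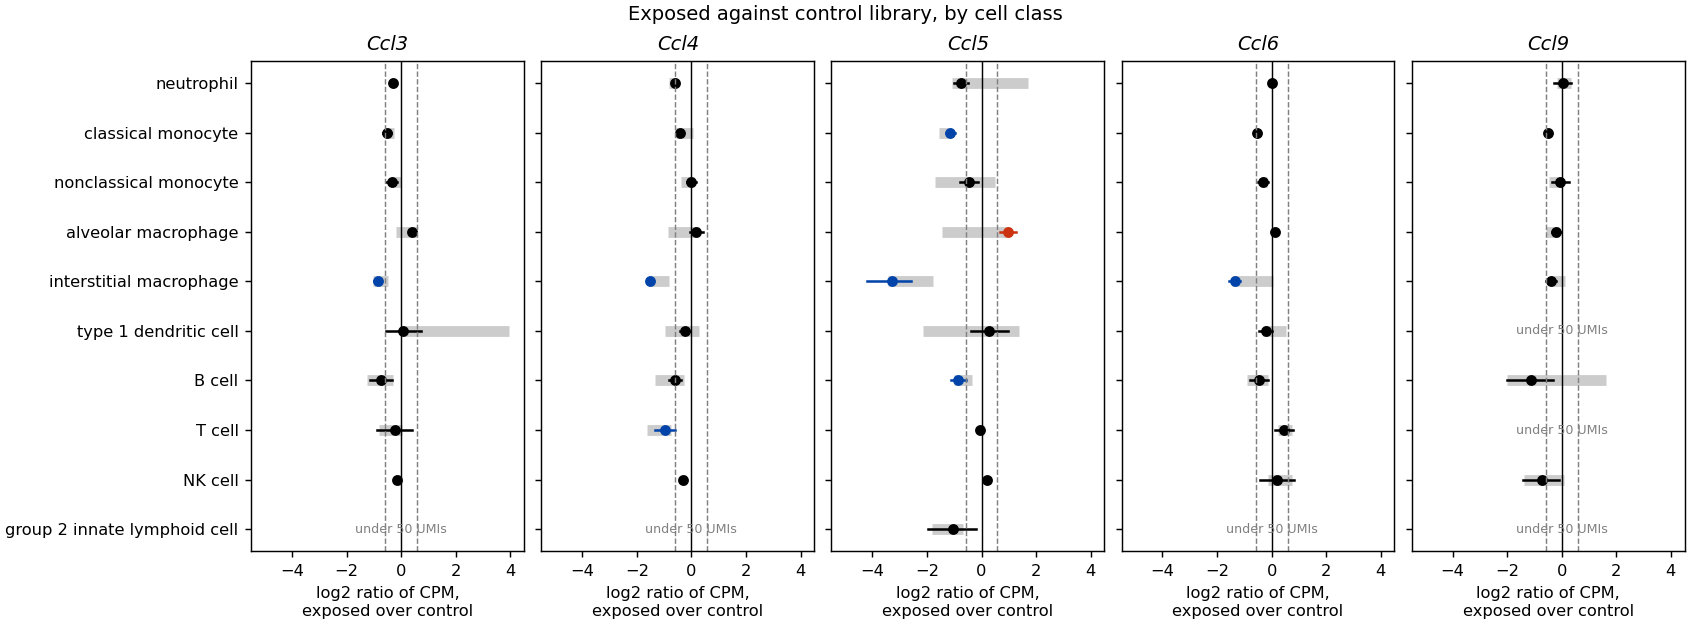
Log2 ratio of CPM, exposed over control (horizontal), for each gene and class, with exact 95% counting intervals (lines) and the range over the alternative settings (grey); dashed lines mark 1.5-fold, blue points were called lower and the red point higher. Interstitial macrophages carry 4 of the 7 lower calls, and the grey range of the red point, Ccl5 in alveolar macrophages, crosses 0.

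Classical monocytes had lower Ccl5 when exposed, 221 CPM [204 to 240] against 100.3 CPM [92.8 to 108], a log2 ratio of -1.14 [-1.30 to -0.98]. In this class 0.832% of all genes counted were called lower. The call was kept in all 14 alternatives (-1.57 to -1.07). Ccl5 was detected in 26.4% of control cells and in 24.3% of exposed ones, at medians of 9023.5 and 12448 UMIs per cell. At least 10 Ccl5 UMIs were held by 6.16% and 3.30% of the cells. The share of B cells with a Ccl5 UMI was 10.7% and 9.37%, at medians of 3314.5 and 3659 UMIs. With cells thinned to equal depth the monocyte shares were 10.3% [7.06 to 14.4] and 4.67% [3.01 to 6.87]. Those of B cells were then 3.38% [2.62 to 4.28] and 3.24% [2.47 to 4.17], and the exposed intervals overlapped. The summed NK list in these monocytes was 11.4 and 6.9 CPM and the T cell list 17.1 and 9.5 CPM (6 of 8 and 9 of 10 genes seen in each library, Ncr1 and Bcl11b at 0 in both). Without cells holding 2 or more of those markers the ratio was -1.24. The other 4 genes were lower without a call, at -0.51 for Ccl3, -0.40 for Ccl4, -0.53 for Ccl6 and -0.49 for Ccl9. For Ccl4 the log2 ratio became 0.041 without the top cell of each library.

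Alveolar macrophages held the single higher pair, where 0.0846% of all genes counted were called higher. Ccl5 was at 19.4 CPM [16.4 to 22.9] in control cells and at 38.0 CPM [33.9 to 42.5] in exposed ones, a log2 ratio of 0.97 [0.68 to 1.26]. These levels lay below and above those of B cells (44.4 and 24.6 CPM), and 116 of the 306 exposed UMIs (37.9%) came from 1 cell. Gzma, the NK cell granzyme, was called higher in the same class, at 7.42 and 21.5 CPM, with the summed NK list at 10.7 and 27.3 CPM (7 and 8 of 8 genes seen, Ncr1 at 0 in the control) and the T cell list at 26.9 and 11.9 CPM (10 and 8 of 10 genes). The log2 ratio of Ccl5 was 0.043 without cells holding 2 or more NK or T cell markers, 0.35 without the top cell of each library and 0.048 at equal depth. It was -1.44 with classes from clusters and -0.83 with a gate margin of 0.15. The call was kept in 6 of 13 alternatives.

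The other lower pairs lay at the level of free RNA. Ccl5 in B cells was at 44.4 and 24.6 CPM (log2 ratio -0.85 [-1.12 to -0.59], 0.556% of genes called lower), with 82 of the 331 control UMIs in 1 cell, and the ratio was -0.47 without the top cell of each library and -0.48 without cells holding 2 or more NK or T cell markers. Ccl4 in T cells was at 23.9 and 12.2 CPM (log2 ratio -0.96 [-1.33 to -0.61], 1.44% of genes called lower), below B cells in both libraries. The calls were kept in 6 of 13 and 8 of 13 alternatives.

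Interstitial macrophages, called lower for Ccl3 and Ccl4, were a large source of Ccl4 as well. Their share of the gated Ccl4 UMIs was 22.1% with 111 control cells and 7.19% with 87 exposed cells. For the genes named next in NK cells, neutrophils, T cells and alveolar macrophages, the libraries differed by less than the called size. Ccl5 in NK cells was 1.15-fold higher in the exposed library (log2 ratio 0.20 [0.19 to 0.22]) and Ccl6 in alveolar macrophages 1.09-fold higher (0.12 [0.10 to 0.15]). Ccl6 in neutrophils had a log2 ratio of 0.00 [-0.03 to 0.03] and Ccl5 in T cells -0.04 [-0.08 to 0.00]. Neutrophil Ccl3 was at -0.31 [-0.37 to -0.26] and Ccl4 at -0.59 [-0.66 to -0.53], whose nearer bound missed 1.5-fold, and 2 of 14 alternatives called it. NK cell Ccl3 was at -0.16 and Ccl4 at -0.31. The counting intervals of several of these ratios exclude 0, but with 1 library per group no spread between animals was available to set them against.

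Single cells that had Ccl3 more often had Ccl4. With each cell thinned to 1000 UMIs, 30.5% [27.6 to 33.6] of control neutrophils with a Ccl3 UMI had a Ccl4 UMI, against 15.4% [13.8 to 17.2] of those without. In the exposed library the shares were 26.0% and 10.9%. In NK cells they were 73.2% and 41.9% in the control and 59.3% and 36.9% in the exposed library. In control interstitial macrophages they were 78.7% [64.3 to 89.3] and 28.6% [17.9 to 41.3], and in exposed ones 48.3% [29.4 to 67.5] and 26.8% [15.8 to 40.3], where the intervals overlap. Classical monocytes showed 40.9% against 8.91% and 30.4% against 10.1%, and nonclassical monocytes 35.9% against 5.88% and 48.1% against 4.59%. Alveolar macrophages showed 2.38% against 2.51% in the control and 6.25% against 1.3% in the exposed library, with overlapping intervals.

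Ccl6 and Ccl9, the pair with the longer shared sequence run, did not go together in this way in classical monocytes. At equal depth Ccl9 was seen in 59.8% of control cells with Ccl6 and 62.1% of those without, and in 47.8% and 47.0% of exposed cells. These cells were from 1 library each, so the shares are descriptions.

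**Figure D5:**
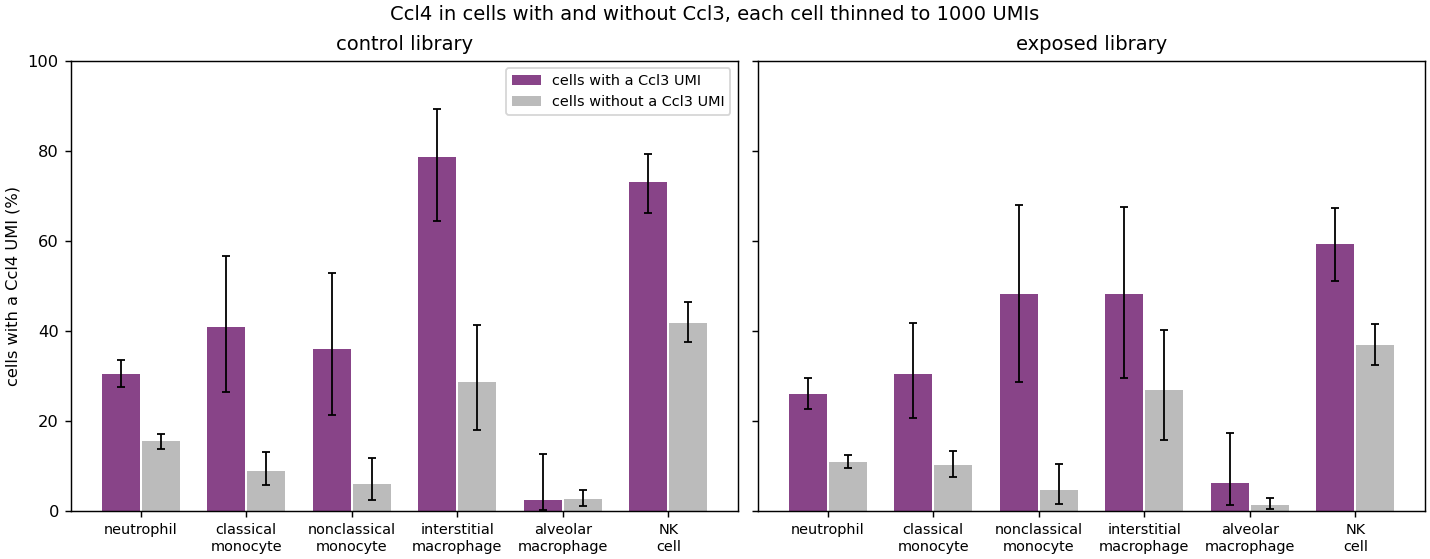
Percent of cells with a Ccl4 UMI (vertical) among cells with and without a Ccl3 UMI, in 6 classes of the control (left) and exposed (right) libraries, each cell thinned to 1000 UMIs; bars start at 0 and lines are exact Clopper-Pearson 95% intervals. Intervals of cells with and without Ccl3 are apart in all classes shown except alveolar macrophages in both libraries and interstitial macrophages in the exposed one.

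Over the 20 profiles of the 10 classes in both libraries, the genes most alike to each of the 5 in log2(CPM + 10) were found among 7697 genes with at least 500 UMIs in each library. The classes share libraries and free RNA, so Pearson's r is given as a description. Nearest to Ccl3 were Fcer1g (r = 0.922), Tyrobp, Il10rb, Itgam and Tfe3. Ccl4 was nearest to Ccl3 (r = 0.872), then Itgam, Clec2d, Efhd2 and Zfhx3. Nearest to Ccl5 were Nkg7 (r = 0.953), a cytotoxic granule gene, then Cst7, Ctsw, Cd7 and Klrc1. Ccl6 was nearest to Ampd3 (r = 0.975), Tnfaip2, Csf2rb, Tlr2 and Nlrp3, and Ccl9 to Zeb2os (r = 0.954), Fcgr1, Cflar, Msr1 and Csf1r, the receptor for the macrophage growth factor. Between members, r was 0.659 for Ccl6 and Ccl9 and -0.445 for Ccl5 and Ccl6.

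Among the receptors, Ccr1 was highest in neutrophils, the class that also held the most Ccl3. Ccr1 was at 1484 and 1159 CPM in neutrophils, 205 and 180 CPM in alveolar macrophages, 77.4 and 134 CPM in classical monocytes, 60.3 and 60.5 CPM in interstitial macrophages, 27.4 and 29.4 CPM in nonclassical monocytes and 7.10 and 4.53 CPM in B cells. Ccrl2, an atypical receptor, was at 1481 and 1271 CPM in neutrophils, 524 and 433 CPM in nonclassical monocytes, 459 and 489 CPM in interstitial macrophages, 375 and 463 CPM in classical monocytes and 199 and 137 CPM in alveolar macrophages. Its level was 80.1 and 89.6 CPM in group 2 innate lymphoid cells, 71.4 and 53.2 CPM in type 1 dendritic cells, 59.2 and 39.2 CPM in NK cells, 13.6 and 14.4 CPM in T cells and 10.6 and 7.14 CPM in B cells, with no call in any class. Dpp4, the protease that trims Ccl5, was at 107 and 98.0 CPM in type 1 dendritic cells, 52.4 and 44.7 CPM in B cells and 41.9 and 44.3 CPM in T cells. It was called lower in exposed classical monocytes, at 28.5 and 13.1 CPM. Ccr3 and the scavenging receptors Ackr1 and Ackr2 had fewer than 50 UMIs in every class.

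The other 15 CC chemokines were led by Ccl22 (7317 UMIs in the gated cells), Ccl17 (5722) and Ccl2 (5206). In interstitial macrophages 6 of the 15 were counted and 2 were called lower, namely Ccl7 (2519 and 1388 CPM) and Ccl22 (87.6 and 34.6 CPM). Their median log2 ratio was -0.51, against -1.34 for the 5 members and -0.02 for all genes counted in the class. Ccl2, which attracts monocytes through Ccr2, was at 2413 and 1617 CPM there (-0.58, not called). It was called lower in classical monocytes (80.5 and 42.6 CPM), and Ccl22 was called lower in T cells (9.82 and 2.54 CPM). Ccl17 was at 615 and 452 CPM in type 1 dendritic cells, without a call. Other CC chemokines were called in none of the 3 classes with the most member UMIs, which were NK cells, neutrophils and alveolar macrophages.

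Among 14 NF-kB and inducible inflammatory genes, 1 was called lower in interstitial macrophages, Tnf (278 and 105 CPM, log2 ratio -1.40), and the median of the list was -0.06. None of the 14 counted was called in neutrophils, where Il1b was at 16814 and 17764 CPM, Cxcl2 at 16321 and 16072 CPM, Nfkbia at 3046 and 4284 CPM and Ier3 at 344 and 453 CPM. None of the 11 counted was called in NK cells, where Nfkbia was at 627 and 615 CPM, Tnfaip3 at 675 and 547 CPM, Rela at 99.1 and 57.2 CPM and Zfp36 at 332 and 241 CPM. In alveolar macrophages Ptgs2 was called lower (26.3 and 10.3 CPM), while Cxcl2 stood at 1819 and 1833 CPM, Nfkbia at 1873 and 1730 CPM and Nfkb1 at 259 and 184 CPM. In classical monocytes, where Ccl5 was lower, 3 of the 14 were called higher, namely Il1b (3308 and 6724 CPM), Cxcl2 (1503 and 2401 CPM) and Ier3 (188 and 433 CPM). In nonclassical monocytes, where no member was called, 3 of the 14 were also called higher, namely Il1b (2336 and 4959 CPM), Ier3 (39.3 and 91.3 CPM) and Ptgs2 (141 and 317 CPM). In type 1 dendritic cells, also without a member call, Tnf was called higher (47.3 and 103 CPM) and Cxcl2 lower (115 and 41.6 CPM). No gene of the list was called in B cells, T cells or group 2 innate lymphoid cells.

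Tissue digestion at 37 °C for 30 minutes can itself induce early genes, and 10 such genes were followed. In interstitial macrophages Egr1 was called lower (706 and 376 CPM, log2 ratio -0.90) beside Ccl3, Ccl4 and Tnf, with a list median of -0.14, and its part in the result was not tested. The heat shock genes Hspa1a (90.7 and 184 CPM) and Hspa1b (101 and 213 CPM) were called higher in alveolar macrophages, and Junb (1187 and 1122 CPM) and Fos (646 and 598 CPM) were not called. Hspa1a was called higher in NK cells (47.9 and 107 CPM), where Junb was at 2328 and 2323 CPM, Ier2 at 614 and 635 CPM and Dusp1 at 439 and 268 CPM. In T cells, where Ccl4 was lower, Hspa1a (66.6 and 124 CPM) and Hspa1b (107 and 211 CPM) were called higher. Hspa1b was also called higher in type 1 dendritic cells (223 and 392 CPM) and in group 2 innate lymphoid cells (41.6 and 137 CPM). None of the 10 was called in classical or nonclassical monocytes or in B cells. None was called in neutrophils, with Dusp1 at 5735 and 4395 CPM, Junb at 4317 and 4047 CPM and Egr1 at 834 and 606 CPM.

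Of 11 cytotoxic and memory lymphocyte genes, 10 were counted and none called in NK cells, where Ccl5 was high. Gzma was at 10644 and 12232 CPM, Nkg7 at 3504 and 3958 CPM and Xcl1 at 562 and 453 CPM. In neutrophils Gzma (18.8 and 14.4 CPM) and Nkg7 (8.68 and 5.72 CPM) were not called. In alveolar macrophages Nkg7 was at 2.70 and 5.10 CPM beside the higher Gzma, and in T cells Gzma was called lower (103 and 59.6 CPM), while Ccl5 was not called there. Gzma was also called lower in nonclassical monocytes (79.8 and 29.4 CPM).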

How the data were processed

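Raw UMI counts per gene and barcode were deposited by the authors, made with Cell Ranger against mm10 (version 3.1.3 per the submitters' processing notes, 3.1.0 per the file headers) from 10x 3′ v3.1 libraries. The members, the lists and the tests were chosen with earlier results of these data known. Barcodes with at least 500 UMIs, 200 genes and at most 10% mitochondrial UMIs were kept (621 control and 604 exposed removed), and 751 and 706 predicted doublets were removed at 0.8% per 1000 cells, using 2 simulated doublets per cell. Leiden clusters (resolution 1, 2000 variable genes without the members, 30 components, 20 neighbours) served as an alternative to the marker gates and for subsets. The gate's 3 markers and margin of 0.25 were set after seeing the data. All 5 members were named in every class of at least 50 cells and in basophils, with their 5 most alike genes, the 3 other CC chemokines with the most UMIs, the counted receptors, and 2 genes by UMIs and 2 by size from each other list in the 3 main classes; other genes named were chosen after their values were seen. Counts were summed per class, with exact Poisson, Clopper-Pearson and conditional binomial 95% intervals (scipy 1.17.1). Sequences came from GENCODE vM21 transcripts. The scripts were tested on simulated data. Cells below 1000 UMIs were left out of thinned shares. Some results, calls of the receptor list among them, are not reported here.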

Additional observations from a re-analysis of the deposited data

Results flagged for a closer look

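Ccl5 was called in opposite directions in different classes. Its log2 ratio of exposed over control was 0.97 in alveolar macrophages, and it was -1.14 in classical monocytes, -3.28 in interstitial macrophages and -0.85 in B cells. The difference between classes was not tested, since each group is 1 library. In alveolar macrophages 1 cell held 116 of the 306 exposed UMIs, in B cells 1 held 82 of the 331 control UMIs, and in interstitial macrophages 1 held 59 of the 224 control UMIs. Without the top cell of each library the log2 ratios were 0.35, -0.47 and -3.04, and it was -1.09 in classical monocytes. Without cells holding 2 NK or T cell markers the alveolar macrophage value was 0.043.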

How the results depend on the processing

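Of 603 log2 ratios recomputed over the 44 pairs of gene and class with enough UMIs, 500 stayed inside the main interval, 100 left it, and 3 called ratios changed sign: Ccl5 in alveolar macrophages, at -1.44 with classes from clusters and -0.83 with a gate margin of 0.15, and Ccl6 in interstitial macrophages, at 0.041 with classes from clusters. The cause was not tested. Against 1 pair called higher, the count was 2 (of 31 pairs) with the B cell level subtracted, which were other pairs, namely Ccl5 in neutrophils (1.69) and Ccl3 in type 1 dendritic cells (3.94), both near the B cell level, while Ccl5 in alveolar macrophages had no value there. It was 0 at equal depth, with classes from clusters, with doublets kept, with a gate margin of 0.15, without cells holding 2 NK or T cell markers, without the top 1% of cells and without the top cell. Against 7 called lower, it was 4 with the B cell level subtracted, 3 at equal depth and 12 with doublets kept. The gate margin of 0.15 and the setting without cells holding NK or T cell markers were chosen after seeing the data. The intervals used for subtraction and for equal weight per cell were borrowed from the main sums. Scaling by the median of ratios moved every log2 ratio by 0.15 in B cells and 0.13 in T cells and by less than 0.1 in the other 8 classes, and left 5 lower calls. The background shares were 0.407% higher and 0.752% lower with a minimum of 20 UMIs and 0.381% and 0.49% with 200. No paired analysis was possible because each group holds 1 library, and for the same reason no replicate could be left out.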
